A study of Mus musculus with 10 samples.

Results

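The 34 genes described here are Trp53, which encodes the transcription factor p53, and 33 genes known as its regulators or transcriptional targets. They were chosen by symbol from a list of canonical members of the pathway, with earlier results of these data known. Each symbol stood on 1 line of the count table of 55486 genes. All 34 passed the filter on low counts in every comparison. Bulk mRNA sequencing covered 10 libraries of mouse cells sorted after 7 days from 5 gels of collagen and basement membrane extract. Normal fibroblasts (NFs) came from mammary glands of female mTmG mice aged 8 weeks, with glands of several mice pooled per sort. mTmG is a reporter that turns from red tdTomato to green GFP once Cre recombinase has acted. CD26- NFs stayed tdTomato+, whereas CD26+ NFs had received an adenovirus encoding Cre and were GFP+. The virus, Cre and the subset therefore cannot be told apart in any comparison of CD26+ with CD26- NFs. The tumor cells were cell lines 13-MCB-17 and 10-SJK-221, each derived from invasive lobular carcinoma (ILC) of mice with Cre under the Wap promoter and floxed Cdh1. Gel 1 held CD26- and CD26+ NFs without tumor cells, gels 2 and 3 held 13-MCB-17 or 10-SJK-221 cells alone, and gels 4 and 5 held NFs with 13-MCB-17 or 10-SJK-221 cells. NFs alone thus had 1 library per subset, the other groups had 2, and each p-value measures the spread between these gels. The 2 co-culture gels differed in tumor line, which was not a term for NFs, so their spread mixes gel and line. Comparisons within tumor cells had 1 library per line and culture, so their spread is how far the lines differ in their change with culture.

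p53 is held at a low level in unstressed cells by Mdm2, an E3 ubiquitin ligase that marks it for degradation, and by the related inhibitor Mdm4. DNA damage, oncogene activity and other stresses relieve this block, and p53 then switches on genes that halt the cell cycle, repair DNA, adjust metabolism or start apoptosis. Mdm2 is itself a target, so its mRNA is part of a negative feedback loop. In fibroblasts the pathway is best known for growth arrest and senescence through Cdkn1a, the gene of the cyclin-dependent kinase inhibitor p21.

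p53 binds DNA at a response element made of a pair of 10-base half-sites. Because the members are grouped by this binding, promoter windows of 300 bases (250 before and 50 after a transcription start, RefSeq, GRCm38.p6) were searched for it. Windows were matched by symbol for 27 members, which left Trp53inp1, Zmat3, Perp, Ddb2, Xpc and Rrm2b without one, and Pmaip1 was not searched. The p53 half-site consensus, which reads the same on both strands, was found without mismatch in windows of 12 of these 27 members (44.4%) and of 9.55% of all 27025 genes with a window. A complete element of a pair of half-sites up to 13 bases apart, with at most 2 mismatches and with the C and G of each CNNG core in place, was found for 5 members (18.5%) and for 4.71% of all genes. A match describes letters in a window and does not show binding. The 5 elements are shown because no other member had one in these windows. Capitals mark the pair of half-sites with the fewest mismatches.
Cdkn1a, chr17:29090729-29090978 (+ strand), the 250 bases before a start: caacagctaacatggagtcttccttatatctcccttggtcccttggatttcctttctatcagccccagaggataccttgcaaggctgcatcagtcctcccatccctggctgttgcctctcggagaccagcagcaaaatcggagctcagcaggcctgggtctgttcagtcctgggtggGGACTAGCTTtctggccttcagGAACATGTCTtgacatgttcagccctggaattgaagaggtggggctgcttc
Bax, chr7:45466899-45467148 (- strand), the 250 bases before the start: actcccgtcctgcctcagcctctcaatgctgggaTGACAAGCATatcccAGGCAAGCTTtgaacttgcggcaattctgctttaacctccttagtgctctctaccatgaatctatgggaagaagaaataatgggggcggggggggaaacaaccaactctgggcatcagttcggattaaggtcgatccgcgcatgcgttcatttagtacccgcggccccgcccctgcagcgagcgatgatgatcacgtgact
Sesn1, chr10:41887189-41887438 (+ strand), the 250 bases before an internal start: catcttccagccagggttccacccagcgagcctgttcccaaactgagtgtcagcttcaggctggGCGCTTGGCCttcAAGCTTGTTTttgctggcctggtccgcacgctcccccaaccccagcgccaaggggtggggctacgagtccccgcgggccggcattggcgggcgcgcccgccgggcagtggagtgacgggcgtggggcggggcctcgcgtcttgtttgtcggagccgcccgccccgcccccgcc
Ccng1, chr11:40755462-40755481 (- strand), the element alone: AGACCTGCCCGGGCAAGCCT
Rps27l, chr9:66946296-66946315 (+ strand), the element alone: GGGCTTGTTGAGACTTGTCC
The Cdkn1a pair with the fewest mismatches matched the consensus with 0 mismatches and a spacer of 12 bases. The 10 bases directly after its second half-site match the half-site consensus with 1 mismatch. That half-site therefore also forms a pair without a spacer, which the search did not keep. The Ccng1 and Rps27l elements had 1 mismatch and no spacer, and those of Bax and Sesn1 had 2 mismatches. Cdkn1a, Sesn1 and Rps27l also had a window at another start, and that window held no complete element.

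Library totals ran from 14142334 to 18408940 counts, so 3 counts, taken as the limit that a count of 0 allows, correspond to 0.163 to 0.212 CPM (the count scaled to the library total; for counting error only). The 10 fibroblast markers, such as Col1a1, summed to 24050 to 76180 CPM in NF libraries and to 40.0 to 178 CPM in tumor libraries. In NFs the sum was 76180 (CD26-) and 70790 CPM (CD26+) in gel 1, 38890 and 24050 CPM in gel 4, and 42470 and 30230 CPM in gel 5. Of the 10, 3 were called higher and 5 lower in co-culture over both subsets, where 25.9% and 22.9% of all genes were. In CD26+ NFs within co-culture 4 were called lower and 0 higher, where 2.53% and 3.48% of all genes were. The 10 epithelial markers, such as Epcam and Krt8, summed to 3990 to 5006 CPM in tumor cells, to 0.435 and 0.281 CPM in CD26- and CD26+ NFs alone, and to 76.2 to 239 CPM in co-cultured NFs. Relative to the tumor library of the same gel, that sum was 1.9% (CD26-) and 3.04% (CD26+) in gel 4, and 2.18% and 5.06% in gel 5. Dpp4, the gene of CD26, was nearly absent, with 4, 12 and 4 counts in CD26+ and 0, 0 and 1 counts in CD26- NFs of gels 1, 4 and 5. Of 8 leukocyte and endothelial markers, which summed to 11.3 to 81.4 CPM in NFs, the defining leukocyte gene Ptprc had at most 2 counts in any library. The other markers of that list moved with the NF groups. Its sum was 11.3 (CD26-) and 18.7 CPM (CD26+) in gel 1, 44.5 and 81.4 CPM in gel 4, and 30.0 and 47.9 CPM in gel 5, most of it Cd68 in co-culture. Between subsets 6 of 6 tested had higher estimates in CD26+ NFs and 1 (Kdr) was called, and in co-culture Cd68, Pecam1 and Cdh5 were called higher and Lyz2 lower. For all genes the shares called higher were 3.93% between subsets and 25.9% in co-culture, where 22.9% were lower. The percentage of counts on mitochondrial genes was 1.67 and 1.68 in NFs alone and 0.816 to 1.05 in co-cultured NFs. The part of these shifts in the results below was not tested. In such bulk libraries fewer cells of a type and less RNA per cell cannot be told apart.

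The first comparison asks how the pathway genes differ between the NF subsets. Over 3 gels, 15 of the 34 genes were higher in CD26+ than in CD26- NFs at an adjusted p under 0.05 and 0 were lower, where 3.93% of all 15013 genes tested were called higher and 3.6% lower. The 15 were Mdm2 among 4 regulators, Cdkn1a, Ccng1 and Gdf15 among 7 arrest genes, Sesn2, Trp53inp1 and Dcxr among 7 stress and metabolism genes, Bax, Bbc3, Pmaip1, Fas, Pidd1, Aen and Phlda3 among 11 apoptosis genes, and Ercc5 among 5 repair genes. The median log2 fold change of the 34 was 0.59 (range -0.64 to 1.79), against 0.00 for all genes tested. In each gel taken alone, 26 to 28 of the 34 were higher in CD26+ NFs, and 24 were higher in all 3 gels, as were 23.6% of all genes. Gel as a replicate block gave 18 members, all higher, and added Psrc1 (0.98, adjusted p = 0.00846), Eda2r (0.66, 0.0206) and Zmat3 (0.54, 0.0295), where 4.4% of all genes were higher and 4.47% lower. Without gel 5 the count was 0 and 17 genes in all were called, although the log2 fold changes of the 15 members then still lay between 0.62 and 1.87 (adjusted p = 0.0586 to 0.268). The count was 7 without gel 1, with 977 genes called in all, and 19 (18 higher, 1 lower) without gel 4, with 1299 in all.

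Trp53 itself (chromosome 11, 69580359 to 69591873) had, in the order of gels 1, 4 and 5, 97.3, 61.8 and 57.3 CPM in the CD26- libraries and 115, 84.1 and 92.8 CPM in the CD26+ libraries. CD26+ NFs were the higher in every gel, but the ranges overlapped and the difference did not pass (log2 fold change 0.31 ± 0.12 SE, adjusted p = 0.159). Mdm2 (chromosome 10, 117688875 to 117710758) had 137, 201 and 170 CPM in the CD26- libraries against 390, 366 and 294 CPM in the CD26+ libraries, 2 ranges that did not overlap (0.90 ± 0.17, adjusted p = 0.0171). The other regulators did not pass. Ppm1d, which encodes a phosphatase that turns p53 signaling off, had a log2 fold change of 0.44 (adjusted p = 0.158), and Mdm4 one of -0.03 (0.926).

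Cdkn1a (chromosome 17, 29090976 to 29100727), at 166 CPM per kilobase of exon the most abundant member per length in NFs, had 277, 529 and 407 CPM in the CD26- libraries and 714, 798 and 799 CPM in the CD26+ libraries. Every CD26+ library lay above every CD26- library (0.81 ± 0.17, adjusted p = 0.0221). Gdf15, a secreted stress cytokine of the TGF-beta family, showed the largest fold change of the called members. Its level was low, at 2.86, 9.76 and 6.04 CPM in the CD26- libraries and 15.4, 31.0 and 22.3 CPM in the CD26+ libraries (1.79 ± 0.24, adjusted p = 0.00443). Ccng1, the cyclin G1 gene whose window held an element with 1 mismatch, had 194.5, 180 and 141 CPM in the CD26- libraries and 478, 355 and 273 CPM in the CD26+ libraries (0.92 ± 0.15, adjusted p = 0.0102). For both genes the 3 libraries of 1 subset lay apart from the 3 of the other. Psrc1, a spindle protein gene, did not pass without the gel block (0.93, adjusted p = 0.0548), whereas the kinase genes Plk2 (0.21, 0.391) and Plk3 (-0.28, 0.182) and the antiproliferative gene Btg2 (-0.04, 0.915) did not pass.

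Apoptosis genes made up the largest group, with 7 of 11 called higher. Pmaip1, which encodes the BH3-only protein Noxa, had 11.4, 51.6 and 51.4 CPM in the CD26- libraries and 40.2, 117.5 and 95.0 CPM in the CD26+ libraries. The subsets overlapped across gels but not within a gel (1.12 ± 0.18, adjusted p = 0.00842). Fas, the death receptor, had 13.2, 4.18 and 4.03 CPM in the CD26- libraries and 31.9, 10.5 and 8.27 CPM in the CD26+ libraries, with both subsets highest in gel 1 (1.07 ± 0.17, adjusted p = 0.00989). Pidd1, part of the caspase-2 activating complex, was at 4.49 to 4.79 CPM in the CD26- libraries and at 22.8, 13.3 and 8.98 CPM in the CD26+ libraries of gels 1, 4 and 5 (1.45 ± 0.26, adjusted p = 0.0137). Its CD26- level barely varied, and the spread lay in CD26+ NFs. Bax, the pore-forming effector, had 29.8, 26.7 and 22.0 CPM in the CD26- libraries and 78.5, 38.3 and 45.0 CPM in the CD26+ libraries (0.83 ± 0.17, adjusted p = 0.0211), and 12.2% of its exon bases are shared with exons of another gene on the same strand. Bbc3, the gene of the BH3-only protein Puma, rose by a log2 fold change of 1.16 (adjusted p = 0.0305), the nuclease gene Aen by 0.73 (0.0416) and Phlda3, an inhibitor of Akt, by 0.62 (0.0271). Eda2r (0.68, adjusted p = 0.057), Ei24 (0.15, 0.583), Apaf1 (-0.02, 0.946) and Perp (0.89, 0.256) did not pass.

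Among stress and metabolism genes, Dcxr, a carbonyl reductase of the xylulose pathway, had 17.9, 11.3 and 9.84 CPM in the CD26- libraries and 67.1, 22.0 and 23.2 CPM in the CD26+ libraries (1.23 ± 0.19, adjusted p = 0.00735). All CD26+ libraries were above all CD26- libraries. Trp53inp1, which promotes autophagy and p53 phosphorylation, had a log2 fold change of 1.07 (adjusted p = 0.0311), and Sesn2, an inhibitor of mTORC1, one of 0.57 (0.0283). Sesn1, of the same sestrin family and with an element of 2 mismatches in its window, went the other way without passing (-0.38, adjusted p = 0.197), and the ribosomal protein gene Rps27l missed the threshold (0.50, 0.0721). Zmat3 (0.55, adjusted p = 0.136) and Abhd4 (-0.00, 0.989) did not pass. Of the repair genes, the nuclease gene Ercc5 rose (0.64, adjusted p = 0.0411). Its call was lost under 4 of 9 alternatives (no filter, and without gel 1, 4 or 5), with log2 fold changes of 0.575 to 0.738 over the 9. Rrm2b, the p53-inducible ribonucleotide reductase subunit, had the lowest value of all members (-0.64, adjusted p = 0.0955). Polk (0.54, 0.117), Xpc (0.23, 0.384) and Ddb2 (0.04, 0.928) did not pass. Of the exon bases of Ddb2, 23.8% lie opposite exons on the other strand, and the use of strand in counting is not given in the sources used here.

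**Figure D1:**
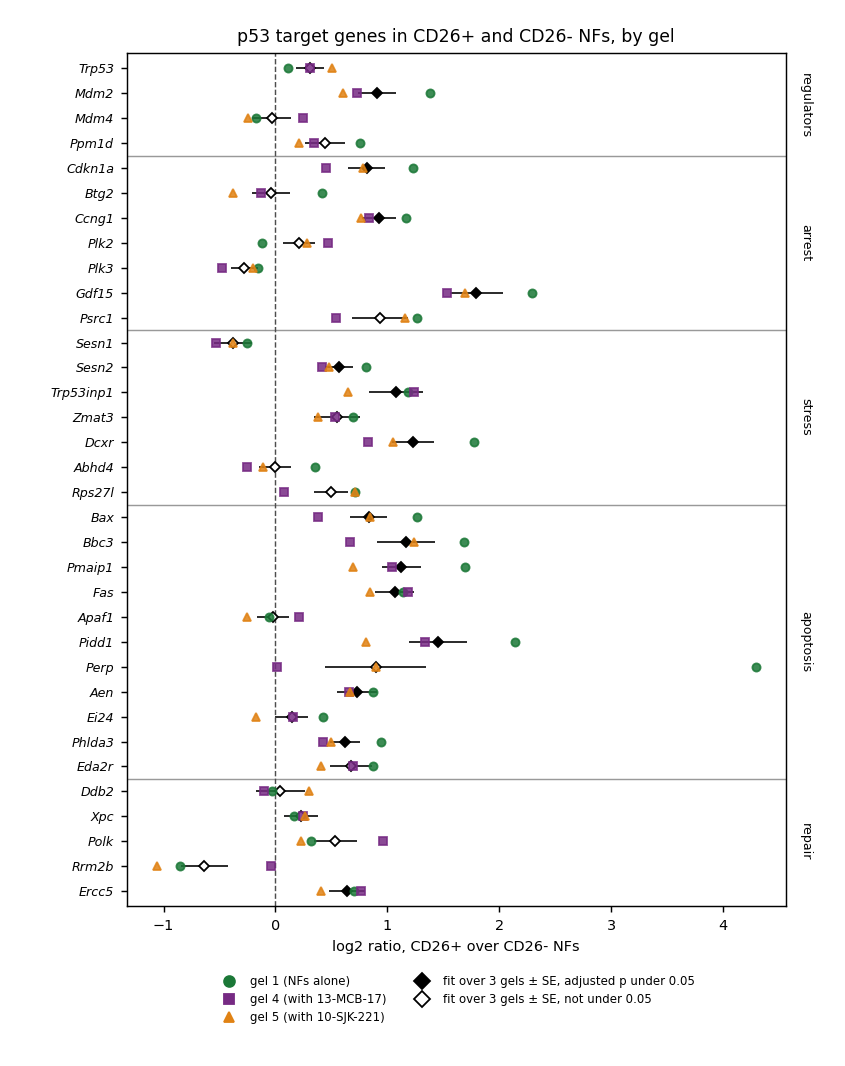
The log2 ratio of CD26+ over CD26- NFs (x axis) is plotted for each of the 34 genes (y axis, grouped by role) in gel 1 (circles), gel 4 (squares) and gel 5 (triangles), with the fit over 3 gels and its SE as diamonds, filled where the adjusted p is under 0.05. All 15 filled diamonds lie to the right of 0, and the gel 1 circle is the rightmost of the 3 gels for 23 genes.

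By gel, with 1 library per subset in each and no test, gel 1 gave a median log2 ratio of 0.78 over the 34 genes, against 0.44 in gel 4 and 0.49 in gel 5, where the medians of all genes were -0.01, 0 and 0. The ratio was highest in gel 1 for 23 of the 34 genes and for 35.1% of all genes, and the test of this difference, the interaction below, called 0 members. Within co-culture, 8 members (Mdm2, Ccng1, Gdf15, Dcxr, Trp53inp1, Pmaip1, Fas and Pidd1) were called higher in CD26+ NFs and 0 lower, where 3.48% of 16231 genes were called higher and 2.53% lower. With gel as a replicate block the count was 19 (18 higher and Rrm2b lower) and the shares of all genes 8.71% and 7.99%. Cdkn1a joined the called genes under the block (0.62, adjusted p = 0.004), as did Bax (0.61, 0.00503) and Bbc3 (0.93, 0.000876). Without any 1 of the 4 co-culture libraries the count was 0 to 3, and the calls over all genes fell from 975 to between 0 and 451. The call of Trp53inp1 in co-culture (1.01 ± 0.27, adjusted p = 0.0468) was lost under 8 of 10 alternatives, DESeq2 included, with log2 fold changes of 0.40 to 1.41.

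Interferon genes, listed because 1 subset had met a virus, were called higher in CD26+ NFs for 1 of 8 tested over 3 gels, where 3.93% of all genes were. Within co-culture 2 of 9 tested were called higher, where 3.48% of all genes were, and 0 were called lower in either comparison. The sum of 10 was 75.3 CPM (CD26-) and 111 CPM (CD26+) in gel 1, 23.4 and 35.8 CPM in gel 4 and 23.1 and 35.4 CPM in gel 5. Their part in the difference between subsets was not tested.

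The interaction, which tests whether the response to tumor cells differs between the subsets, gave 0 called members by edgeR and by DESeq2, where edgeR called 0.216% of genes higher and 0.148% lower. At an unadjusted p under 0.05 there were 6 members, where 7.79% of all genes had such a p. The estimates were negative for 26 of 34 genes, with a median of -0.33 against 0.03 for all genes, and those of Dcxr (-0.83 ± 0.31), Pmaip1 (-0.81 ± 0.31) and Mdm2 (-0.71 ± 0.30) were among the lowest. Under the gel block 1 member, Perp, was called (-3.66, adjusted p = 0.0423), where 1.42% of all genes were called higher and 1.01% lower. The Perp value rests on 1 count in CD26- NFs alone.

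**Figure D2:**
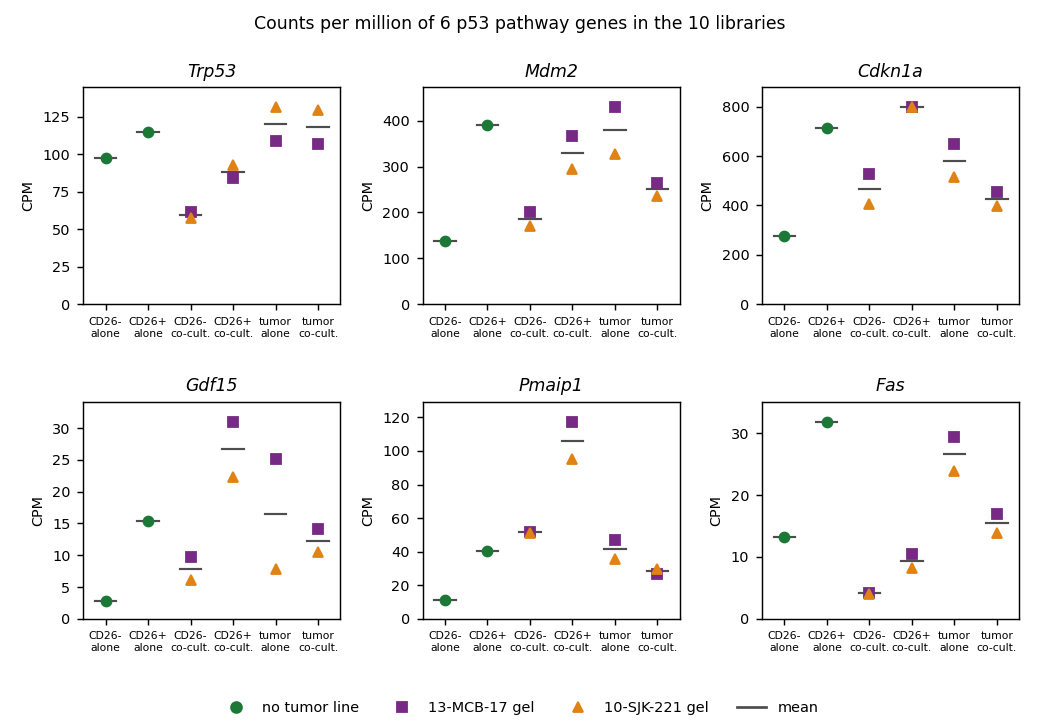
CPM (y axis, from 0) of Trp53, Mdm2, Cdkn1a, Gdf15, Pmaip1 and Fas are plotted for each library in 6 groups (x axis), with symbols for the tumor line of the gel and a bar at the group mean. CD26+ NFs lie above CD26- NFs of the same culture in all 6 panels, and Fas and Pmaip1 of co-cultured NFs lie on opposite sides of NFs alone.

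The second comparison asks how the genes respond in NFs that share a gel with tumor cells. The 2 co-culture gels were each set against gel 1, so the 2 ratios of a gene share a control, and a peculiarity of gel 1 cannot be told apart from the response. Over both subsets, 19 members were called, 6 higher and 13 lower in co-culture, where 25.9% of 15013 genes were called higher and 22.9% lower. The 6 higher members are a smaller share (17.6%) and the 13 lower a larger share (38.2%) than these. Gel as a replicate block gave 21 (6 higher and 15 lower, where 26% and 23.4% of all genes were called). It added Ccng1 (-0.41, adjusted p = 0.0327) and Zmat3 (-0.36, 0.0418), both lower, to the members called without the block, which are described below. Genes of 1 role moved in both directions. Of the apoptosis genes 3 rose and 6 fell, of the arrest genes 3 rose and 1 fell, and of the regulators (2), stress genes (3) and repair genes (1) those called all fell.

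Pmaip1, at 11.4 CPM in CD26- and 40.2 CPM in the CD26+ libraries alone, had 51.6 and 51.4 CPM for co-cultured CD26- and 117.5 and 95.0 CPM in CD26+ libraries from co-culture (log2 fold change 1.80 ± 0.20, adjusted p = 8.17e-05). Plk3, a stress-activated polo-like kinase gene, stood at 52.9 and 52.2 CPM without tumor cells, 181 and 150.5 CPM in CD26- libraries from co-culture and 143 and 149.8 CPM in CD26+ libraries from co-culture (1.61 ± 0.14, adjusted p = 1.54e-05). For both genes every co-culture library was above gel 1 of the same subset. Gdf15 rose by 1.11 ± 0.26 (adjusted p = 0.00615) and Apaf1, the scaffold of the apoptosome, by 0.70 ± 0.16 (0.00476). Cdkn1a rose by 0.49 ± 0.18 over both subsets (adjusted p = 0.0433), with 0.82 ± 0.23 in CD26- NFs (0.0152) and 0.20 ± 0.22 in CD26+ NFs (0.51). The call over both subsets was lost without gel 4 (0.44, adjusted p = 0.0785), without gel 5 (0.55, 0.109) and with no filter (0.47, 0.062).

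The death receptor went against these. Fas fell from 13.2 to 4.18 and 4.03 CPM in the CD26- libraries and from 31.9 to 10.5 and 8.27 CPM in the CD26+ libraries (-1.68 ± 0.17, adjusted p = 4.6e-05). Sesn1 fell from 20.5 to 8.42 and 8.52 CPM in the CD26- libraries and from 18.8 to 6.42 and 7.50 CPM in the CD26+ libraries (-1.31 ± 0.17, adjusted p = 0.000212). Subset made little difference to the size of either fall. Phlda3 (-1.02, adjusted p = 0.00025), Ei24, an endoplasmic reticulum protein gene (-0.98, 0.000627), Dcxr (-1.16, 0.000824), Btg2 (-0.99, 0.00128) and Ppm1d (-0.86, 0.00356) also fell, each in both subsets and both gels. Trp53 fell by 0.50 ± 0.13 on the log2 scale (adjusted p = 0.00982), as the values above show for every gel and subset. The remaining 5 members that fell were Rps27l, Eda2r, Bax, Ercc5 and Aen, at -0.48 to -0.66, and all 5 calls were lost without gel 5 (-0.31 to -0.60, adjusted p = 0.0858 to 0.192). Mdm2 did not pass (0.13 ± 0.18, adjusted p = 0.586), and its ratios were 0.58 and 0.42 in CD26- NFs and -0.08 and -0.36 in CD26+ NFs.

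Perp, an epithelial desmosome gene that p53 also induces, rose in co-culture, and tumor markers moved with it. It had 1 count (0.0621 CPM) in CD26- and 19 counts (1.33 CPM) in CD26+ NFs alone. In co-culture it had 4.91 and 4.09 CPM in the CD26- libraries and 5.46 and 8.70 CPM in the CD26+ libraries, against 187 to 454 CPM in tumor cells. The ratio to the 1 count was 79 (exact 95% counting interval 13.8 to 3160) in gel 4 and 65.8 (11.4 to 2635) in gel 5. At the share of epithelial marker RNA in each library, the tumor level of Perp corresponds to 4.45, 7.12, 4.06 and 9.44 CPM in CD26- and CD26+ NFs of gel 4 and then gel 5, or 90.6% to 130% of what was measured. The next member in this respect was Ei24, where that share corresponds to 5.01% to 13.3% of its level. Any other part of tumor RNA in these results was not tested.

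**Figure D3:**
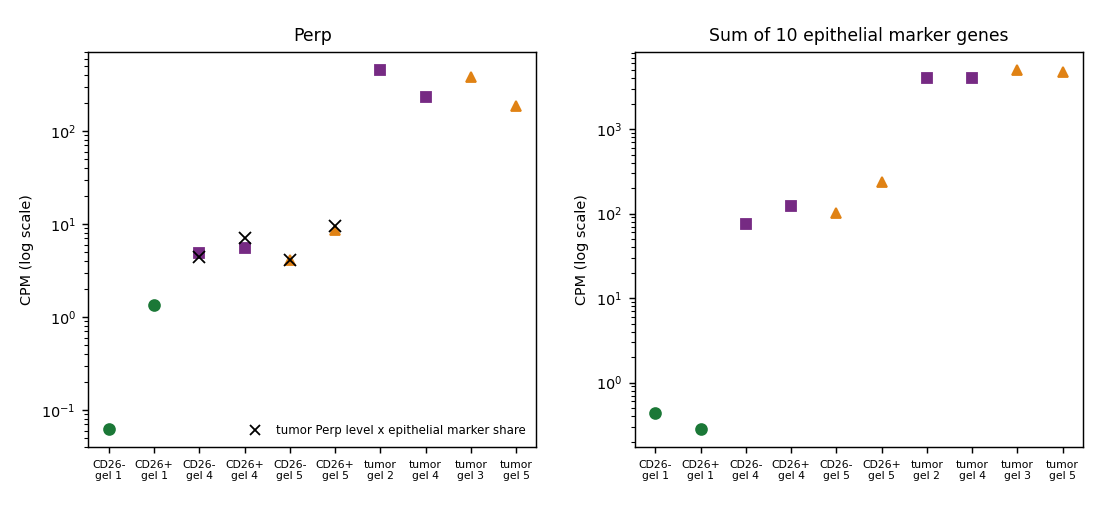
Perp (left) and the sum of 10 epithelial markers (right) are plotted in CPM on log axes for the 10 libraries (x axis), with symbols for the tumor line of the gel and crosses for the tumor level of Perp multiplied by the epithelial marker share of the NF library. The crosses (4.06 to 9.44 CPM) lie close to the measured Perp levels of the 4 co-cultured NF libraries (4.09 to 8.70 CPM).

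Within 1 subset, 13 members were called in CD26- NFs (6 higher and 7 lower, where 16.6% and 14.1% of 16231 genes were called) and 17 in CD26+ NFs (5 higher and 12 lower, where 19% and 15.2% were called). NFs alone had 1 library in each of these contrasts, which is taken to vary like the co-culture libraries. Both sets share Plk3, Pmaip1, Gdf15, Apaf1 and Perp among the genes that rose, although the call of Gdf15 in CD26+ NFs (0.83, adjusted p = 0.0473) was lost under 8 of 10 alternatives, DESeq2 and RLE scaling included (adjusted p up to 0.285), and Cdkn1a rose with a call in CD26- NFs alone. Called as lower in CD26+ NFs and not in CD26- NFs were Ppm1d, Bax, Pidd1, Rps27l, Eda2r and Abhd4, and Trp53 was called lower in CD26- NFs (-0.64, adjusted p = 0.0248) and not in CD26+ NFs (-0.34, 0.203), but the interaction passed for none of these. With gel as a replicate block, Ppm1d (-0.61, adjusted p = 0.0441) and Eda2r (-0.53, 0.0362) were called lower in CD26- NFs as well, and the counts were 16 in CD26- NFs (7 higher and 9 lower, where 20.2% and 18.6% of all genes were called) and 22 in CD26+ NFs (6 and 16, where 22.5% and 19.4% were). Pidd1, for example, had 22.8 CPM in the CD26+ libraries alone and 13.3 and 8.98 CPM in co-culture (adjusted p = 0.0145, lost under DESeq2 and without the CD26+ library of gel 5, up to 0.0594), against 4.72, 4.79 and 4.49 CPM in CD26- NFs (0.04 ± 0.32, 0.942). The count in CD26- NFs was 6 without the gel 4 library of that subset and 8 without that of gel 5.

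**Figure D4:**
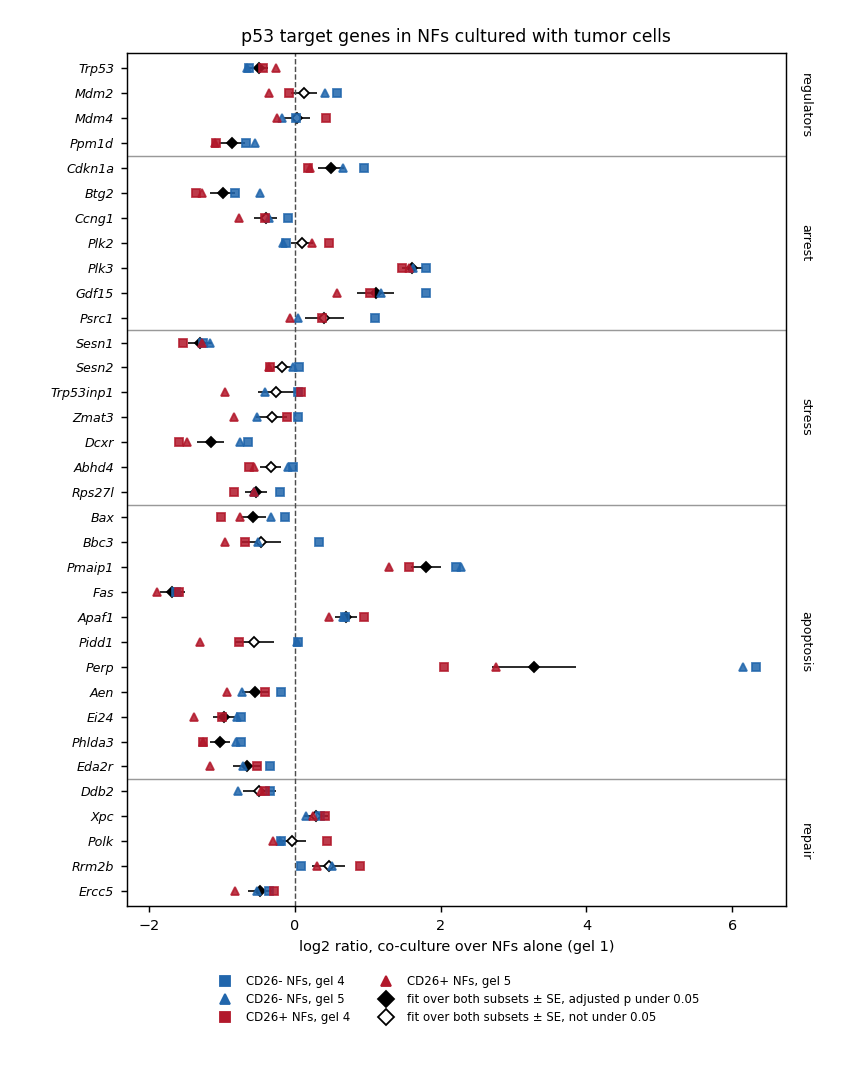
The log2 ratio of each co-cultured NF library over NFs alone of the same subset (x axis) is plotted for the 34 genes (y axis, grouped by role) with CD26- NFs in blue, CD26+ NFs in red, squares for gel 4 and triangles for gel 5, and the fit over both subsets with its SE as diamonds, filled where the adjusted p is under 0.05. Pmaip1, Plk3, Gdf15 and Apaf1 lie to the right of 0 in all 4 libraries and Fas, Sesn1, Dcxr and Phlda3 to the left.

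The third comparison asks the same of the tumor cells. With NFs in the gel, 12 of 34 genes were lower and 0 higher, where 11.5% of 13197 genes were called lower and 10.8% higher. The median log2 fold change was -0.26, against 0.01 for all genes. In the same comparison 5 of 10 epithelial markers were called lower (median -0.45), 5 of 7 fibroblast markers tested higher (median 3.73) and 2 of 5 leukocyte and endothelial markers lower, with Cd68 at 299 and 93.1 CPM in the lines alone and 80.5 and 34.8 CPM in co-culture. Their part in the fall of the members was not tested. Perp was the most abundant member per length in tumor cells, at 161 CPM per kilobase, and fell from 454 to 234 CPM in line 13-MCB-17 and from 379 to 187 CPM in 10-SJK-221 (-1.02 ± 0.11, adjusted p = 0.000521). Fas fell from 29.4 to 16.97 CPM and from 23.9 to 13.9 CPM (-0.82 ± 0.14, adjusted p = 0.00506). Plk2, a polo-like kinase gene of the arrest group, fell from 772 to 440.4 CPM and from 755 to 481 CPM (-0.76 ± 0.12, adjusted p = 0.00317). Both lines thus changed by similar amounts in these genes.

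Mdm2 fell from 429 to 265 CPM in 13-MCB-17 and from 328 to 235 CPM in 10-SJK-221 cells (-0.61 ± 0.12, adjusted p = 0.00655). Cdkn1a fell from 648 to 455 CPM and from 514 to 399.9 CPM (-0.46 ± 0.12, adjusted p = 0.0234). Trp53 had 109 and 132 CPM in the lines alone and 107 and 129.5 CPM in co-culture, a difference that did not pass (-0.05 ± 0.10, adjusted p = 0.752). The target genes called here thus fell while the Trp53 mRNA stayed within 3 CPM of its level alone in each line. Dcxr (-0.84, adjusted p = 0.0025), Aen (-0.57, 0.0058), Zmat3, an RNA-binding protein gene (-0.45, 0.0142), Polk, a translesion polymerase gene (-0.43, 0.0233), Pmaip1 (-0.56, 0.0325), Eda2r (-0.52, 0.0425) and Trp53inp1 (-0.35, 0.0426) made up the rest. This fit has 1 library per line and culture, and the count was 5 (1817 genes called in all, against 2942) with all 10 libraries in 1 fit and 1 (406 to 1014 in all) when any 1 tumor library was left out of that fit. DESeq2 called 8 and not Pmaip1, Eda2r, Trp53inp1 or Polk (adjusted p = 0.118 to 0.184), and RLE scaling lost Eda2r. Without the line as a term 0 members and 0 genes in all were called.

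The response of NFs differed from that of tumor cells for 13 members, in a fit of all 10 libraries added after the data had been seen, where 30.8% of 17048 genes differed, a share close to that of the members (38.2%). An opposite direction in every library together with a call was found for 6 members and for 20.8% of all genes with counts throughout. Cdkn1a, Plk3 and Pmaip1 were higher in all 4 co-cultured NF libraries and lower in both co-cultured tumor libraries, and Ppm1d and Sesn1 the reverse. For Fas both cell types moved down, NFs by a further 0.87 ± 0.24 on the log2 scale (adjusted p = 0.016).

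Between the lines, 11 members were called, 1 higher (Bax) and 10 lower in 10-SJK-221 than in 13-MCB-17 cells, where 5.93% of 13197 genes were called higher and 8.54% lower. Eda2r, an X-linked receptor of the TNF family, had 49.1 and 39.7 CPM in 13-MCB-17 alone and in co-culture against 12.5 and 7.42 CPM in 10-SJK-221 cells (-2.26 ± 0.16, adjusted p = 9.86e-05). Abhd4, an N-acyl phospholipid hydrolase gene, had 132 and 102 CPM against 44.1 and 41.2 CPM (-1.52 ± 0.11, adjusted p = 0.000136). In both genes the lines stood further apart than the cultures. Psrc1 (-0.92, adjusted p = 0.003), Dcxr (-0.68, 0.00974), Phlda3 (-0.48, 0.0155), Bbc3 (-0.74, 0.0168), Ercc5 (-0.57, 0.023), Mdm4 (-0.51, 0.0239), Gdf15 (-1.14, 0.029) and Aen (-0.39, 0.0385) were lower as well. Bax had 29.0 and 23.3 CPM in 13-MCB-17 and 42.3 and 42.6 CPM in 10-SJK-221 cells (0.63 ± 0.13, adjusted p = 0.0166). Trp53 (0.20, adjusted p = 0.21), Mdm2 (-0.36, 0.0753) and Cdkn1a (-0.34, 0.093) did not pass. The count was 4 with all 10 libraries in 1 fit (1065 genes called in all, against 1910), and 2 or 3 (401 to 526 in all) when 1 tumor library was left out of it. DESeq2 called 6, all lower, so that Bax, the 1 higher gene, lost its call (adjusted p = 0.0783), as it did in each of these leave-out fits. The difference in Gdf15 was -1.78 between the lines alone and -0.51 in co-culture, and its call was lost under RLE scaling and with all 10 libraries in 1 fit.

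**Figure D5:**
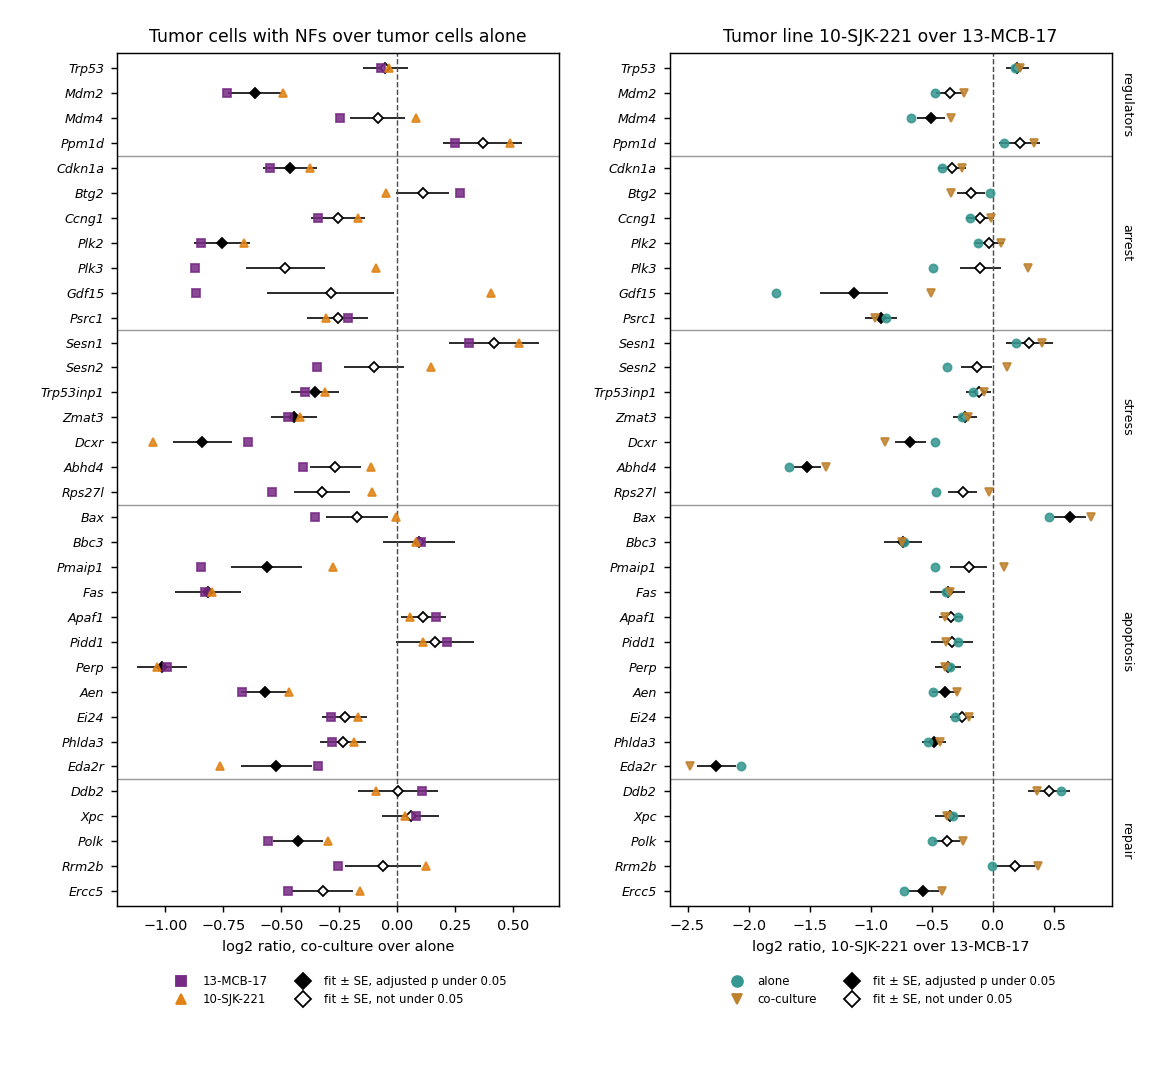
Log2 ratios of the 34 genes (y axis, grouped by role) are plotted for co-culture over alone in each tumor line (left) and for 10-SJK-221 over 13-MCB-17 in each culture (right), with the fit and its SE as diamonds, filled where the adjusted p is under 0.05. All 12 filled diamonds on the left lie below 0, and on the right Eda2r (-2.26) and Abhd4 (-1.52) lie farthest from 0.

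Set against tumor cells over both cultures, NFs had 9 members higher and 16 lower, where 34.5% of 17048 genes were called higher and 32.7% lower. The lowest was Perp (-7.65 ± 0.19, adjusted p = 1.01e-11), whose level in co-cultured NFs is described above and whose difference was -5.01 within gels 4 and 5 under the gel block. Among the arrest genes Plk2 had 223 to 368 CPM in NFs and 440.4 to 772 CPM in tumor cells (-0.95 ± 0.10, adjusted p = 3.29e-06). Btg2 was the reverse, with 213 to 559 CPM in NFs and 168 to 208 CPM in tumor cells (1.01 ± 0.11, adjusted p = 5.2e-06), and neither gene's ranges overlapped between the cell types. Plk3 (-1.14, adjusted p = 4.76e-06), Dcxr (-0.82, 2.46e-05) and Xpc, the damage sensor of nucleotide excision repair (-0.92, 1.02e-05), were lower in NFs, and Abhd4 (1.59, 3.12e-08) and Eda2r (1.24, 1.21e-05) were higher. Trp53 was lower in NFs (-0.27 ± 0.09, adjusted p = 0.022), a call lost under 6 of 10 alternatives (RLE scaling, no filter, and without gel 2, 3, 4 or 5, adjusted p up to 0.155), while Mdm2 (-0.20, 0.114) and Cdkn1a (0.24, 0.0682) did not pass. Restricted to gels 4 and 5 with gel as a replicate block, 21 members were called (6 higher and 15 lower, where 32.1% and 27.4% of all genes were). Plk3 (-0.07, adjusted p = 0.687), Eda2r (1.02, 0.0574), Sesn1, Rps27l, Bax, Apaf1, Phlda3 and Ercc5 lost their calls. Calls were gained by Cdkn1a (0.72, adjusted p = 0.0041) and Gdf15 (0.43, 0.0423), higher in NFs, and by Ppm1d (-0.56, 0.027) and Pidd1 (-0.65, 0.0211), lower in NFs.

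Other genes of the pathway came from lists of 20 upstream regulators, 20 further targets and 20 cell cycle genes that p53 is known to repress through p21. In CD26+ against CD26- NFs, 1 of 19 upstream regulators tested was called (higher), 8 of 20 further targets (6 higher, 2 lower) and 1 of 20 repressed genes (lower). The medians were -0.10, 0.41 and -0.52. Of all genes tested, 3.93% were called higher and 3.6% lower. The shares of the upstream (5.26%) and repressed genes (5%) lay near these, and that of the further targets was 40%. The upstream gene was Cdkn2a, whose products p19Arf, an inhibitor of Mdm2, and p16Ink4a are not separated by counts per gene. It had 25.7, 14 and 9.78 CPM in the CD26- libraries and 56.1, 50.6 and 52.0 CPM in the CD26+ libraries (1.62 ± 0.21, adjusted p = 0.00426), and at most 1 count in any tumor library. Gtse1, a microtubule protein gene, was higher (1.38 ± 0.22, adjusted p = 0.00873), and Thbs1, a secreted matrix glycoprotein gene, was lower (-0.84 ± 0.17, 0.0215). Rprm, a G2 arrest gene, had 84, 28 and 11 counts in CD26+ NFs and 5, 0 and 2 counts in CD26- NFs. Mki67, the proliferation marker, was the repressed gene called, with 44.1, 10.3 and 16.4 CPM in CD26- and 13.1, 4.82 and 7.64 CPM in the CD26+ libraries (-1.50 ± 0.26, adjusted p = 0.012).

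In co-cultured against lone NFs, 4 of 19 upstream regulators rose and 4 fell, 4 of 20 further targets rose and 7 fell, and 7 of 20 repressed cell cycle genes fell and 0 rose, where 25.9% of all genes rose and 22.9% fell. Of the repressed genes, 12 of 20 were called lower in CD26- NFs (median -1.16, 20 of 20 estimates lower) and 2 of 20 in CD26+ NFs (median -0.22, 11 of 20 lower), where 14.1% and 15.2% of all genes were. All 20 interaction estimates were positive (median 0.97, against 0.03 for all genes), and 0 were called. Steap3, a ferrireductase gene, fell from 552 to 32.9 and 33.4 CPM in CD26- and from 590.3 to 53.8 and 57.8 CPM in the CD26+ libraries (-3.69 ± 0.16, adjusted p = 2.77e-07). In tumor cells with NFs, 13 of 20 repressed genes fell and 1 rose, as did 6 and 5 of 17 further targets and 0 and 3 of 18 upstream regulators, where 11.5% of all genes fell and 10.8% rose. Between lines, 16 of the 20 repressed genes were higher and 0 lower in 10-SJK-221 cells, where 5.93% of all genes were higher and 8.54% lower. All 20 were called lower in NFs than in tumor cells, where 32.7% of all genes were.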

How the data were processed

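Raw read counts per gene for 10 libraries were deposited by the authors in 1 table (stranded mRNA libraries). The submitters' processing notes name HISAT2 2.2.1 and GRCm38, and the counter, its strand setting and the annotation release are not given in the sources used here. Each column was matched to its sample by name, and 1 line without a gene ID held 0 counts. A further floxed gene of the tumor model and the values of 1 gene of the other lists are not reported here.

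CPM was computed from library totals (14142334 to 18408940 counts). Groups were compared in R 4.3.3 with edgeR 4.0.16 (filterByExpr, TMM, quasi-likelihood F test, Benjamini-Hochberg adjustment over all genes tested, threshold 0.05), and log2 fold changes are given with their SE. Every adjusted p is from this test unless another is named. Subset and culture were additive terms in 6 NF libraries (3 residual degrees of freedom), 4 groups were fitted for contrasts within a subset or culture and for the interaction (2), and line and culture were additive terms in 4 tumor libraries (1). NFs and tumor cells were compared in a fit of 10 libraries (3). Alternatives were DESeq2 1.42.0, RLE scaling, other filters, the study's absolute log2 fold change above 2, a gel block and leaving out libraries. Labels do not say that gels came from separate animals, so the p-values measure the spread between gels. By their labels, CD26- and CD26+ NFs of 1 number shared a gel, and the gel block pairs them on that ground. Their deviations from the group means in co-culture correlated across 16231 genes at r = 0.224. The co-culture gels also differed in tumor line, so this correlation cannot separate a shared gel from a shared line. The main NF fits held no gel term and left this pairing out.

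In simulated counts with known changes, the subset comparison recovered 86% of 100 genes changed by a log2 fold change of 1 and 100% of 100 changed by 2 (15013 genes). The simulated libraries held no effect of gel or tumor line, and genes of low CPM were not among those changed. These rates therefore need not hold for the libraries measured. The 34 members and the other lists were chosen with earlier results of these data known. Values in every library are given for Trp53, Mdm2 and Cdkn1a and, per comparison, for up to 8 called members of lowest adjusted p with 1 direction in every gel or line, and other lists name up to 4 genes. Gene positions are from GENCODE M21 (GRCm38), which held 99.4% of the gene IDs and all 34 members.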

Additional observations from a re-analysis of the deposited data

Results flagged for a closer look

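For 6 members the response to co-culture went one way in all 4 NF libraries and the opposite way in both tumor libraries, and the difference (NFs minus tumor cells, log2, in a fit of all 10 libraries by edgeR) passed at an adjusted p under 0.05. These are 17.6% of the 34 members, and 20.8% of the 13154 genes with counts in all 10 libraries met the same criteria, so the members did not exceed the share of all genes. The difference was 2.40 ± 0.24 for Pmaip1 (adjusted p = 1.9e-05), 2.09 for Plk3 and 0.96 ± 0.21 for Cdkn1a (0.00534), which were higher in co-cultured NFs and lower in co-cultured tumor cells. It was -1.73 for Sesn1 and -1.23 for Ppm1d, which were lower in co-cultured NFs. For Perp it was 5.27, and the NF side of that value rests on 1 count in CD26- NFs alone and moves with epithelial marker RNA, as described above. The call of Cdkn1a for co-culture in NFs themselves was lost without either co-culture gel. NFs alone were 1 gel, so their 4 ratios share 1 control per subset.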

How the results depend on the processing

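NFs alone came from 1 gel, tumor cells alone from 1 gel per line, and the tumor fit had 1 residual degree of freedom. Perp in CD26- NFs alone lay under the floor of 3 counts, so its ratios have wide counting intervals.

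Of 1300 values for single members under the alternatives, 1014 kept direction and side of the threshold, 274 lost their call, 10 gained one and 2 changed sign, namely Mdm2 (0.19) and Sesn1 (-0.16) in NFs against tumor cells with gel as a replicate block. When a log2 fold change beyond 2 in size was also required, the members called were 0 for the subsets over 3 gels and 0 in co-culture, 1 for co-culture over both subsets, 2 in CD26- NFs, 1 in CD26+ NFs, 0 for tumor cells in co-culture, 1 between lines and 1 for NFs against tumor cells. With no filter, the subset comparison in co-culture gave 3. With all 10 libraries in 1 fit, the tumor comparison of cultures gave 5 and that of lines 4, and DESeq2 gave 6 between lines. Without the line as a term, the tumor comparison of cultures gave 0. With gel as a replicate block, the subset comparison in co-culture gave 19 and the interaction 1, and no other count moved by over 1.5 times. Leaving out 1 gel or library gave 0 to 19 members for the subsets over 3 gels, 0 to 3 in co-culture, 14 to 22 for co-culture over both subsets, 6 to 12 in CD26- NFs, 12 to 16 in CD26+ NFs, 0 for the interaction, 1 for tumor cells in co-culture, 2 to 3 between lines and 19 to 25 for NFs against tumor cells. In such fits a lone library is taken to vary like the other groups. The causes of these changes were not tested.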

Other observations

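Of 10 interferon genes, 8 were tested in NFs and 6 of these were called lower and 0 higher in co-culture over both subsets, where 22.9% of all genes were called lower. In tumor cells 5 of 10 were called lower and 0 higher, where 11.5% of all genes were called lower. The sum of the 10 was 180.1 CPM in 13-MCB-17 and 51.9 CPM in 10-SJK-221 cells alone and 48.4 and 45.1 CPM in co-culture. Their relation to the members was not tested.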
